A study of Mus musculus with 11 samples.

Results

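The genes described here are 38 antioxidant genes of the glutathione and thioredoxin systems, taken from a list of symbols of known function. They were chosen with earlier results of these data known. Their counts beside those of all genes are therefore a description and not an independent test. *Gstp1* and *Gstp2*, near-identical copies, were summed, which leaves 37 genes of 35016 gene symbols in the annotation. Ionizing radiation splits water into reactive oxygen species: superoxide dismutases turn superoxide into hydrogen peroxide, which catalase, the glutathione peroxidases and the peroxiredoxins reduce to water. Glutathione peroxidases draw their electrons from glutathione, peroxiredoxins mostly from thioredoxin, and both carriers are recharged with NADPH by glutathione reductase and the thioredoxin reductases. The transcription factor NRF2 (gene *Nfe2l2*), which KEAP1 marks for breakdown, turns on many of these genes.

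The libraries were bulk RNA sequencing of total RNA from KP1, a mouse small cell lung cancer (SCLC) line that is mutant for *Rb* and *p53*, grown in RPMI medium with serum. All libraries come from this 1 line and so do not represent different tumours. Untreated cells gave 2 control libraries, replicates 2 and 3, and cells that had received 5 Gy gave 3 irradiated libraries, replicates 1, 2 and 3, with pellets collected 24 h after the radiation. The comparison asks how the transcriptome of these cancer cells responds to radiation. Estimated reads summed to 31036317 and 26432466 in control replicates 2 and 3 and to 24469945, 21185956 and 27243557 in irradiated replicates 1, 2 and 3. The labels do not say that the libraries came from separate cultures, so p values measure the spread between these libraries, which may be technical.

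The cells carried markers of a neuroendocrine SCLC line. *Chga*, which encodes chromogranin A of secretory granules, had 436 and 396 TPM in control and 278, 391 and 475 TPM in irradiated cells (TPM, Salmon's transcript abundance scaled for length and depth). *Syp*, which encodes synaptophysin of synaptic vesicles, had 68.8 and 54.5 TPM in control and 74.0, 49.2 and 55.0 TPM in irradiated cells. The groups overlapped on this scale for both genes. Fewer cells of a type and less RNA per cell cannot be told apart in bulk RNA.

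Reads of the irradiated libraries came from shorter transcripts. Averaged over reads, the transcript of origin was 5463 bases long in control replicate 2 and 4729 in control replicate 3, against 3715, 3625 and 3998 in the irradiated libraries. In the decile of genes with the shortest main transcripts (81 to 1151 bases) irradiated over control cells had a median log2 fold change of 0.83, and in the decile with the longest (6521 to 123179 bases) it was −0.82. Most antioxidant transcripts are short, 17 of the 31 genes tested lying in the 2 shortest deciles. The fold changes are therefore given also with an offset fitted to each library's trend with transcript length, whether that trend is technical or biological. The offset did not take out the whole trend: the shortest decile, with 10 of the 31 genes, kept a median of 0.18, and the longest had −0.029. The part of length in any single result was not tested further, and the trend and the treatment cannot be told apart in these 5 libraries.

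Unless another setting is named, irradiated and control cells are compared by edgeR's quasi-likelihood F test, with Benjamini-Hochberg adjustment over the 14090 genes that passed the filter on low counts. Of the 37 antioxidant genes 31 passed the filter, 14 of them were higher in irradiated cells at an adjusted p under 0.05, where 12.7% of all tested genes were higher, and 1 was lower, where 13% of all tested genes were lower. At an added log2 fold change beyond 1.5 in either direction, 3 genes were higher (*Gpx1*, *Selenow* and *Msrb1*), against 1.65% of all genes, and 1 was lower (*Slc7a11*), against 1.9%. All 3 irradiated libraries lay above both controls in CPM (read counts scaled by library size, with edgeR's TMM factors) for 20 of the 31 genes, against 30.1% of all genes, and below both for 2, against 29.3%. The median log2 fold change was 0.72 over the 31 genes and 0.017 over all genes tested. With the transcript length offset, 2 antioxidant genes were higher (*Prdx2* and *Prdx5*), against 2.7% of all genes, and 0 were lower, against 2.04%. An unadjusted p under 0.05 with that offset was reached by 12 of the 31 genes above 0 and 1 below 0 in edgeR, and by 2164 above and 1707 below 0 of all 14090. DESeq2, run without the offset, called 15 antioxidant genes higher and 1 lower, and 2369 higher and 2158 lower of all 15145. The median with the offset was 0.33, beside 0.040 over all genes and 0.18 in the shortest decile. Of the 31 genes, 26 lay above the median log2 fold change of their own length decile and 5 below it. All genes divide evenly there by definition. Length still varies within a decile, from 81 to 1151 bases in the shortest, so this count does not remove the trend.

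The count of higher genes also moved with single libraries, and so did the count over all genes. Without control replicate 2 it was 3 (*Gpx4*, *Prdx5* and *Gstm5*) and no antioxidant gene was lower, beside 97 of 14602 genes higher and 179 lower in all, with 15 genes above 0 and 1 below 0 at an unadjusted p under 0.05 in edgeR. Without control replicate 3 it was 18, beside 2254 of 14755 in all. It was 9 without irradiated replicate 1 (in all 843 of 13966), 10 without irradiated replicate 2 (687 of 13927) and 14 without irradiated replicate 3 (1562 of 13849). With the length offset, which was combined with left-out libraries after seeing the data, the count was 7 without control replicate 3 and 0 without each of the other 4 libraries in turn, at 11 or 12 genes above 0 with an unadjusted p under 0.05 in edgeR. Over all genes these fits called 991 higher without control replicate 3, and 0, 0, 1 and 105 higher without control replicate 2 and irradiated replicates 1, 2 and 3. Counts at the unadjusted p in these fits are given for the antioxidant genes alone. They cannot be set beside the counts over all genes, which are at the adjusted p. Exact permutation (two-sided) of 2 against 3 libraries has 0.1 as its smallest possible p. The smaller values here come from spread pooled over genes by edgeR.

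**Figure D1:**
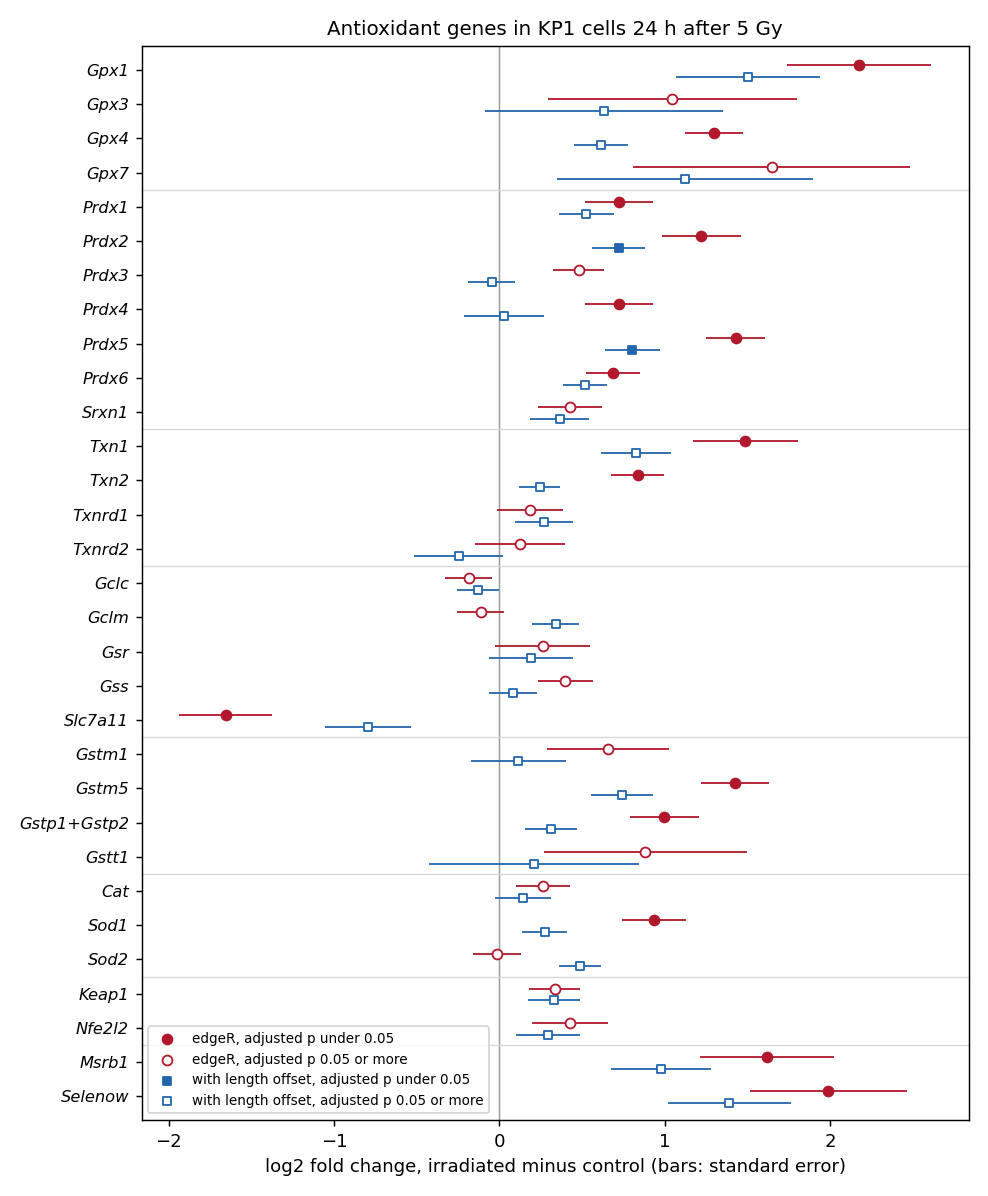
Log2 fold change of irradiated over control KP1 cells (x axis, bars are 1 standard error) for the 31 antioxidant genes tested, grouped by role from the glutathione peroxidases at the top. Red circles are edgeR without and blue squares edgeR with the transcript length offset, filled at an adjusted p under 0.05: 15 red circles are filled, and 2 blue squares, *Prdx2* and *Prdx5*.

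Among the glutathione peroxidases, *Gpx1* and *Gpx4* rose after irradiation. *Gpx1* encodes the cytosolic peroxidase that removes hydrogen peroxide, lies on chromosome 9 from 108338903 to 108340343 of GRCm38 and had 5.18 and 4.62 CPM in control replicates 2 and 3 and 35.9, 17.9 and 12.5 CPM in irradiated replicates 1, 2 and 3. All 3 irradiated libraries were above both controls, and irradiated replicate 1 was the highest by a wide margin. For *Gpx1* the log2 fold change was 2.17 ± 0.44 (SE; edgeR, adjusted p = 0.0129), and 1.504 (edgeR, adjusted p = 0.0793) with the length offset, the adjusted p running from 8.11e-08 to 0.184 over 20 alternative settings. *Gpx4*, which reduces lipid peroxides in membranes and guards against ferroptosis, lies on chromosome 10 from 80047166 to 80056439 and had 44.8 and 47.7 CPM in control replicates 2 and 3 and 128, 117 and 94.9 CPM in irradiated replicates 1, 2 and 3. The controls were close together and the groups did not overlap. For *Gpx4* the log2 fold change was 1.30 ± 0.18 (SE; edgeR, adjusted p = 0.00811), and 0.61 (edgeR, adjusted p = 0.0659) with the length offset, the adjusted p running from 3.46e-09 to 0.285 over the settings. *Gpx1* had 2.28 (edgeR, adjusted p = 0.0635) without control replicate 2.

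The remaining peroxidases were scarce. *Gpx3*, the secreted form, had 11 and 36 reads in control and 77, 29 and 27 reads in irradiated cells, with groups that overlapped and a log2 fold change of 1.05 ± 0.75 (SE; edgeR, adjusted p = 0.327), against 0.63 with the length offset. *Gpx7*, an endoplasmic reticulum form, had 3 and 16 reads in control and 32, 29 and 20 reads in irradiated cells, the irradiated libraries all higher, and a log2 fold change of 1.65 ± 0.84 (SE; edgeR, adjusted p = 0.174), against 1.12 with the length offset. *Gpx2*, the gastrointestinal form, had at most 6 reads in any library and *Gpx8* at most 2, and neither was tested. The 6 peroxidase genes summed to 138 and 159 TPM in control and 389, 309.7 and 265 TPM in irradiated cells, most of it *Gpx4*. *Gpx7* had a log2 fold change of 3.36 (edgeR, adjusted p = 0.0452) without control replicate 3 and of 0.90 (edgeR, adjusted p = 0.495) without control replicate 2, the former resting on 1 control library with 3 reads. *Gpx3* had 0.43, 2.22 and 0.41 without control replicate 2, control replicate 3 and irradiated replicate 1.

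Peroxiredoxins, which use a reactive cysteine to reduce peroxides, were the most abundant of these groups by summed TPM, and 5 of the 6 rose. *Prdx2*, a cytosolic form, lies on chromosome 8 from 84969587 to 84974834 and had 185 and 297 CPM in control replicates 2 and 3 and 539.9, 659 and 485 CPM in irradiated replicates 1, 2 and 3. Every irradiated library exceeded both controls, and control replicate 3 stood above control replicate 2. For *Prdx2* the log2 fold change was 1.22 ± 0.24 (SE; edgeR, adjusted p = 0.0124), and 0.72 (edgeR, adjusted p = 0.0449) with the length offset, the adjusted p running from 1.72e-06 to 0.208 over the settings. *Prdx5*, found in mitochondria, peroxisomes and cytosol, lies on chromosome 19 from 6906697 to 6910106 and had 37.9 and 35.9 CPM in control replicates 2 and 3 and 107, 110.2 and 81.0 CPM in irradiated replicates 1, 2 and 3. The controls nearly coincided, and all irradiated libraries lay above them. For *Prdx5* the log2 fold change was 1.43 ± 0.18 (SE; edgeR, adjusted p = 0.00811), and 0.80 (edgeR, adjusted p = 0.0410) with the length offset, the adjusted p running from 2.57e-10 to 0.142. Both genes were called with the length offset as well, where their calls were lost without control replicate 2 (0.57 and 1.05) and without irradiated replicate 1 (0.74 and 0.74), 2 (0.69 and 0.83) or 3 (0.76 and 0.87). Without the offset, *Prdx2* stood at 0.94 (edgeR, adjusted p = 0.0605) without control replicate 2.

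*Prdx1*, *Prdx4* and *Prdx6* rose with smaller estimates. *Prdx1*, the other main cytosolic form, lies on chromosome 4 from 116685544 to 116700822 and had 138 and 188 CPM in control replicates 2 and 3 and 254, 323 and 232 CPM in irradiated replicates 1, 2 and 3. The groups did not overlap in CPM but did in TPM, where control replicate 3 stood at 446 and irradiated replicates 1 and 3 at 429.8 and 422 TPM. For *Prdx1* the log2 fold change was 0.72 ± 0.21 (SE; edgeR, adjusted p = 0.0363), and 0.53 (edgeR, adjusted p = 0.0919) with the length offset, the adjusted p running from 0.000506 to 0.309. *Prdx4*, the form of the endoplasmic reticulum, lies on chromosome X from 155323918 to 155340754 and had 55.1 and 45.5 CPM in control replicates 2 and 3 and 103, 78.1 and 67.7 CPM in irradiated replicates 1, 2 and 3. The groups did not overlap, and irradiated replicate 1 was the highest. For *Prdx4* the log2 fold change was 0.72 ± 0.21 (SE; edgeR, adjusted p = 0.0368), and 0.028 (edgeR, adjusted p = 0.951) with the length offset, the adjusted p running from 0.00160 to 0.951. *Prdx6*, which has a single reactive cysteine and also a phospholipase activity, lies on chromosome 1 from 161240112 to 161251219 and had 67.4 and 84.5 CPM in control replicates 2 and 3 and 124, 130.2 and 112 CPM in irradiated replicates 1, 2 and 3. The groups did not overlap, and its log2 fold change was 0.68 ± 0.16 (SE; edgeR, adjusted p = 0.0208), and 0.52 (edgeR, adjusted p = 0.0590) with the length offset, the adjusted p running from 0.00119 to 0.287.

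Calls of these 3 genes depended on single libraries. *Prdx1* had log2 fold changes of 0.54 (edgeR, adjusted p = 0.178), 0.76 (edgeR, adjusted p = 0.0758) and 0.57 (edgeR, adjusted p = 0.109) without control replicate 2, irradiated replicate 1 and irradiated replicate 2. *Prdx4* had 0.89 (edgeR, adjusted p = 0.0856), 0.61 (edgeR, adjusted p = 0.105), 0.54 (edgeR, adjusted p = 0.0862) and 0.76 (edgeR, adjusted p = 0.0686) without control replicates 2 and 3 and irradiated replicates 1 and 2. The *Prdx4* estimate with the length offset turned to −0.11 without control replicate 3 and to −0.16 without irradiated replicate 1. *Prdx6* had 0.55 (edgeR, adjusted p = 0.119), 0.68 (edgeR, adjusted p = 0.0577) and 0.64 (edgeR, adjusted p = 0.0647) without control replicate 2 and irradiated replicates 1 and 2. With offsets from Salmon's effective length, *Prdx1* stood at 0.61 (edgeR, adjusted p = 0.0722). A share of the *Prdx6* reads was assigned to a transcript annotated for nonsense-mediated decay, 33.6% and 44.5% in control and 36.7%, 38.5% and 38.4% in irradiated cells.

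*Prdx3*, the mitochondrial peroxiredoxin, had 29.9 and 32.8 CPM in control and 46.0, 45.1 and 40.2 CPM in irradiated cells, groups that did not overlap and a log2 fold change of 0.48 ± 0.16 (SE; edgeR, adjusted p = 0.0525), just short of the threshold. DESeq2 called it at 0.48 (adjusted p = 0.0363), as did edgeR without a filter on low counts at 0.53 (adjusted p = 0.0465), and with the length offset its value was −0.047 (edgeR, adjusted p = 0.859), the adjusted p running from 0.0187 to 0.963. *Srxn1* encodes sulfiredoxin, which restores overoxidized peroxiredoxins and is a well-known NRF2 target, and had 13.7 and 14.8 CPM in control and 20.99, 17.1 and 19.1 CPM in irradiated cells. Its irradiated libraries lay above both controls, with a log2 fold change of 0.42 ± 0.19 (SE; edgeR, adjusted p = 0.133) and of 0.36 (edgeR, adjusted p = 0.224) with the length offset, the adjusted p running from 0.128 to 0.846. In TPM the order of the *Srxn1* groups was not the same, with 23.6 and 17.5 TPM in control and 16.5, 14.1 and 20.6 TPM in irradiated cells. The 6 peroxiredoxins and *Srxn1* summed to 969 and 1334 TPM in control and 1741, 1814 and 1588 TPM in irradiated cells.

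In the thioredoxin system the 2 thioredoxins rose and their reductases did not pass the test. *Txn1*, the cytosolic thioredoxin that passes electrons to peroxiredoxins and to ribonucleotide reductase, lies on chromosome 4 from 57943373 to 57956411 and had 29.4 and 46.8 CPM in control replicates 2 and 3 and 106, 144 and 70.7 CPM in irradiated replicates 1, 2 and 3. The irradiated libraries were all higher than the controls, with replicate 2 the highest. For *Txn1* the log2 fold change was 1.49 ± 0.32 (SE; edgeR, adjusted p = 0.0149), and 0.83 (edgeR, adjusted p = 0.0590) with the length offset, the adjusted p running from 1.26e-07 to 0.218. *Txn2*, the mitochondrial thioredoxin, lies on chromosome 15 from 77915047 to 77929006 and had 51.9 and 59.6 CPM in control replicates 2 and 3 and 99.9, 109 and 89.6 CPM in irradiated replicates 1, 2 and 3. The groups did not overlap, and libraries of 1 group lay close together. For *Txn2* the log2 fold change was 0.84 ± 0.16 (SE; edgeR, adjusted p = 0.0113), and 0.24 (edgeR, adjusted p = 0.243) with the length offset, the adjusted p running from 5.45e-05 to 0.631. *Txn1* and *Txn2* had 1.21 (edgeR, adjusted p = 0.0827) and 0.76 (edgeR, adjusted p = 0.0692) without control replicate 2.

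*Txnrd1*, the cytosolic thioredoxin reductase and an NRF2 target, lies on chromosome 10 from 82833951 to 82897712 and had 206 and 312 CPM in control replicates 2 and 3 and 274, 322 and 289 CPM in irradiated replicates 1, 2 and 3. Control replicate 3 lay among the irradiated libraries and control replicate 2 below them. For *Txnrd1* the log2 fold change was 0.19 ± 0.20 (SE; edgeR, adjusted p = 0.520) and 0.27 (edgeR, adjusted p = 0.356) with the length offset, the adjusted p running from 0.0563 to 0.895. *Txnrd2*, the mitochondrial reductase, was low, with 7.00 and 5.59 CPM in control and 6.09, 7.86 and 6.67 CPM in irradiated cells, overlapping groups and a log2 fold change of 0.12 ± 0.27 (SE; edgeR, adjusted p = 0.765). Both estimates changed sign in 1 or more settings, *Txnrd1* to −0.065 without control replicate 2 and *Txnrd2* to −0.0097 without control replicate 3 and to −0.25 with the length offset. Thioredoxins and reductases summed to 322 and 446 TPM in control and 522, 613 and 468 TPM in irradiated cells.

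The 1 antioxidant gene called lower, without the length offset, was *Slc7a11* of cystine import. *Slc7a11* encodes the transport subunit of the cystine and glutamate exchanger, which supplies the cysteine for glutathione, lies on chromosome 3 from 49892526 to 50443614 and had 46.0 and 34.6 CPM in control replicates 2 and 3 and 17.9, 9.41 and 11.1 CPM in irradiated replicates 1, 2 and 3. Both controls exceeded every irradiated library. For *Slc7a11* the log2 fold change was −1.66 ± 0.28 (SE; edgeR, adjusted p = 0.00927), and −0.80 (edgeR, adjusted p = 0.0995) with the length offset, the adjusted p running from 2.09e-07 to 0.292, and the estimate stayed below 0 in all 20 settings, from −1.98 to −0.64. Its main transcript has 9223 bases and lies in the longest decile, where the median gene stood at −0.82. It had −1.42 (edgeR, adjusted p = 0.0555) without control replicate 2. The level was low throughout, with 11.7 and 7.54 TPM in control and 3.91, 1.59 and 2.11 TPM in irradiated cells.

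None of the 4 enzymes of glutathione synthesis and recycling passed the test. With *Slc7a11* they summed to 205.5 and 314.6 TPM in control and 232.3, 206.2 and 233.5 TPM in irradiated cells. *Gclc*, the catalytic subunit of glutamate-cysteine ligase, which sets the rate of glutathione synthesis, had 60.4 and 66.2 CPM in control replicates 2 and 3 and 56.0, 58.8 and 52.3 CPM in irradiated replicates 1, 2 and 3. Its irradiated libraries all lay below both controls, though the difference was small, with a log2 fold change of −0.18 ± 0.14 (SE; edgeR, adjusted p = 0.361) and of −0.13 (edgeR, adjusted p = 0.553) with the length offset, the adjusted p running from 0.239 to 0.813. *Gclm*, the modifier subunit of the same enzyme, had 90.5 and 99.7 CPM in control replicates 2 and 3 and 93.5, 83.0 and 87.1 CPM in irradiated replicates 1, 2 and 3. Its groups overlapped, and its log2 fold change was −0.11 ± 0.14 (SE; edgeR, adjusted p = 0.582), turning to 0.34 (edgeR, adjusted p = 0.168) with the length offset, the adjusted p running from 0.0885 to 0.930. *Gss*, glutathione synthetase, had 32.2 and 41.5 CPM in control and 47.1, 47.2 and 51.2 CPM in irradiated cells, the irradiated libraries above both controls, and a log2 fold change of 0.40 ± 0.17 (SE; edgeR, adjusted p = 0.109), against 0.084 with the length offset. *Gsr*, glutathione reductase, had 51.2 and 113 CPM in control and 99.4, 102 and 93.3 CPM in irradiated cells, and the 2 controls lay on either side of the irradiated libraries. For *Gsr* the log2 fold change was 0.26 ± 0.29 (SE; edgeR, adjusted p = 0.526), against 0.19 with the length offset, and it was 0.96 (edgeR, adjusted p = 0.0102) without control replicate 3 and −0.18 (edgeR, adjusted p = 0.545) without control replicate 2. *Gss* was 0.61 (edgeR, adjusted p = 0.0497) without control replicate 3 and 0.25 (edgeR, adjusted p = 0.448) without control replicate 2.

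Of the glutathione transferases, which join glutathione to electrophiles, 2 of the 4 tested rose. *Gstm5*, of the mu class, lies on chromosome 3 from 107895821 to 107898686 and had 9.28 and 9.98 CPM in control replicates 2 and 3 and 28.4, 27.7 and 21.5 CPM in irradiated replicates 1, 2 and 3. Controls were alike and the groups were well apart. For *Gstm5* the log2 fold change was 1.42 ± 0.21 (SE; edgeR, adjusted p = 0.00867), and 0.74 (edgeR, adjusted p = 0.0572) with the length offset, the adjusted p running from 1.14e-07 to 0.215. *Gstp1* and *Gstp2* together, the pi class, had 37.9 and 45.5 CPM in control replicates 2 and 3 and 92.3, 93.8 and 63.5 CPM in irradiated replicates 1, 2 and 3. The irradiated libraries lay above both controls, replicate 3 the lowest of them. For the pair the log2 fold change was 1.00 ± 0.21 (SE; edgeR, adjusted p = 0.0138), and 0.31 (edgeR, adjusted p = 0.231) with the length offset, the adjusted p running from 3.06e-05 to 0.666. The pair had 0.89 (edgeR, adjusted p = 0.0827) without control replicate 2.

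How reads divide between *Gstp1* (chromosome 19 from 4035407 to 4037985) and *Gstp2* (from 4040285 to 4046023) is uncertain, because their main transcripts are 98.2% identical over 86% of *Gstp1*. *Gstp2* took 2.56% and 3.62% of the reads of the pair in control and 14.0%, 3.28% and 2.88% in irradiated replicates 1, 2 and 3, so that irradiated replicate 1 stood apart. Of the other members, 6 have pseudogene copies among the transcripts of the annotation at 95% identity over 80% of the shorter sequence, and the copies held at most 3 reads in any library.

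*Gstm1*, another mu-class enzyme, had 7.53 and 18.6 CPM in control and 23.7, 22.6 and 15.7 CPM in irradiated cells, overlapping groups and a log2 fold change of 0.66 ± 0.37 (SE; edgeR, adjusted p = 0.214), against 0.12 with the length offset, with control replicate 2 far below all other libraries. It was 1.47 (edgeR, adjusted p = 0.0131) without control replicate 3 and 0.17 (edgeR, adjusted p = 0.739) without control replicate 2. *Gstt1*, of the theta class, had 18 and 12 reads in control and 25, 20 and 30 reads in irradiated cells, the irradiated libraries above both controls, and a log2 fold change of 0.88 ± 0.61 (SE; edgeR, adjusted p = 0.310), against 0.21 with the length offset. *Gsto1*, *Gsta4* and *Gstk1* had at most 11, 3 and 1 reads in any library and were not tested. The transferases summed to 189.8 and 248 TPM in control and 405, 389.5 and 294 TPM in irradiated cells, most of it from the pi class.

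Cytosolic superoxide dismutase rose, while its mitochondrial counterpart and catalase did not pass the test. *Sod1*, the copper and zinc enzyme, lies on chromosome 16 from 90220754 to 90226329 and had 67.1 and 79.0 CPM in control replicates 2 and 3 and 141, 165 and 113 CPM in irradiated replicates 1, 2 and 3. The groups did not overlap. For *Sod1* the log2 fold change was 0.94 ± 0.19 (SE; edgeR, adjusted p = 0.0135), and 0.27 (edgeR, adjusted p = 0.230) with the length offset, the adjusted p running from 4.74e-05 to 0.604. *Sod2*, the manganese enzyme of mitochondria, had 137 and 116 CPM in control replicates 2 and 3 and 124, 124 and 128 CPM in irradiated replicates 1, 2 and 3. The irradiated libraries lay between the 2 controls, with a log2 fold change of −0.013 ± 0.14 (SE; edgeR, adjusted p = 0.955) and of 0.49 (edgeR, adjusted p = 0.0613) with the length offset, the adjusted p running from 0.0613 to 1.00. *Sod1* and *Sod2* thus lay at 0.94 and −0.013 without the offset and at 0.27 and 0.49 with it, and their main transcripts have 641 and 5861 bases. *Cat*, catalase, had 50.8 and 41.0 CPM in control and 50.6, 54.0 and 60.4 CPM in irradiated cells, overlapping groups and a log2 fold change of 0.26 ± 0.16 (SE; edgeR, adjusted p = 0.260), against 0.14 with the length offset. *Sod1* had 0.84 (edgeR, adjusted p = 0.0779) and *Sod2* had 0.14 without control replicate 2.

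Neither *Nfe2l2* nor *Keap1* passed the test. With *Nqo1* they summed to 62.9 and 66.2 TPM in control and 66.5, 65.0 and 74.5 TPM in irradiated cells. *Nfe2l2*, which encodes NRF2, lies on chromosome 2 from 75675513 to 75704641 and had 19.1 and 32.0 CPM in control replicates 2 and 3 and 31.8, 35.3 and 35.9 CPM in irradiated replicates 1, 2 and 3. Control replicate 2 was the lowest library, and control replicate 3 lay within the irradiated range. For *Nfe2l2* the log2 fold change was 0.42 ± 0.23 (SE; edgeR, adjusted p = 0.198) and 0.29 (edgeR, adjusted p = 0.361) with the length offset, and 0.86 (edgeR, adjusted p = 0.0224) without control replicate 3 and 0.12 without control replicate 2, the adjusted p running from 0.0224 to 0.904. *Keap1*, whose product holds NRF2 in check, lies on chromosome 9 from 21229730 to 21239361 and had 71.2 and 56.8 CPM in control replicates 2 and 3 and 83.1, 77.8 and 81.0 CPM in irradiated replicates 1, 2 and 3. Its irradiated libraries lay above both controls, by a log2 fold change of 0.33 ± 0.16 (SE; edgeR, adjusted p = 0.141) and of 0.33 (edgeR, adjusted p = 0.213) with the length offset, the adjusted p running from 0.0699 to 0.508. *Nqo1*, a quinone reductase often read as a marker of NRF2 activity, was nearly absent, with 0 and 3 reads in control and 6, 4 and 0 reads in irradiated cells, and was not tested. With at most 6 reads in any library, a small difference in *Nqo1* could not have been detected.

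*Selenow* and *Msrb1*, which encode selenoproteins, both rose. *Selenow* encodes selenoprotein W, a small thioredoxin-like protein, lies on chromosome 7 from 15917208 to 15922402 and had 9.66 and 32.0 CPM in control replicates 2 and 3 and 101, 91.5 and 55.6 CPM in irradiated replicates 1, 2 and 3. The groups did not overlap, but the controls differed from each other as well, replicate 2 being the lowest library. For *Selenow* the log2 fold change was 1.99 ± 0.47 (SE; edgeR, adjusted p = 0.0209), and 1.39 (edgeR, adjusted p = 0.0657) with the length offset, the adjusted p running from 1.22e-08 to 0.169. *Msrb1* encodes a reductase that repairs oxidized methionine, lies on chromosome 17 from 24736642 to 24742778 and had 2.35 and 5.55 CPM in control replicates 2 and 3 and 11.8, 15.4 and 9.18 CPM in irradiated replicates 1, 2 and 3. Irradiated libraries were above both controls, and again control replicate 2 was the lowest. For *Msrb1* the log2 fold change was 1.62 ± 0.41 (SE; edgeR, adjusted p = 0.0247), and 0.98 (edgeR, adjusted p = 0.0897) with the length offset, the adjusted p running from 0.000121 to 0.262. Without control replicate 2 *Selenow* and *Msrb1* had 1.39 (edgeR, adjusted p = 0.0595) and 1.14 (edgeR, adjusted p = 0.100), and without irradiated replicate 1 they had 1.82 (edgeR, adjusted p = 0.0626) and 1.64 (edgeR, adjusted p = 0.0595). Without irradiated replicate 2 *Msrb1* had 1.41 (edgeR, adjusted p = 0.0720). Without control replicate 3, the higher control, *Selenow* and *Msrb1* had 3.12 (edgeR, adjusted p = 0.00397) and 2.38 (edgeR, adjusted p = 0.00700).

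Per length, the antioxidant genes spanned a wide range of levels in the control cells. *Prdx2*, *Prdx1* and *Sod1* were the most abundant, at 380.2 ± 139, 372 ± 105 and 358 ± 39.4 TPM (SD, n = 2), and did not differ beyond their spread. *Txnrd1* and the *Gstp1* and *Gstp2* sum followed at 180.1 ± 45.1 and 163 ± 24.7 TPM (SD, n = 2). In all, 10 of the 37 genes had a mean of at least 100 TPM. *Gclm*, *Selenow* and *Gsr* stood lower at 86.3 ± 16.4, 85.9 ± 66.7 and 84.0 ± 52.8 TPM (SD, n = 2), with a wide spread for *Selenow* and *Gsr*. *Gpx1* and *Slc7a11* were low at 11.5 ± 0.592 and 9.61 ± 2.94 TPM (SD, n = 2). In irradiated cells *Prdx2* stood at 698 ± 72.8, *Sod1* at 590.3 ± 89.8 and *Selenow* at 280.0 ± 76.6 TPM (SD, n = 3), and *Selenow* moved from rank 13 to rank 4 of the 37. All 37 together made up 0.243% and 0.325% of the TPM in control and 0.451%, 0.457% and 0.380% in irradiated libraries.

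**Figure D2:**
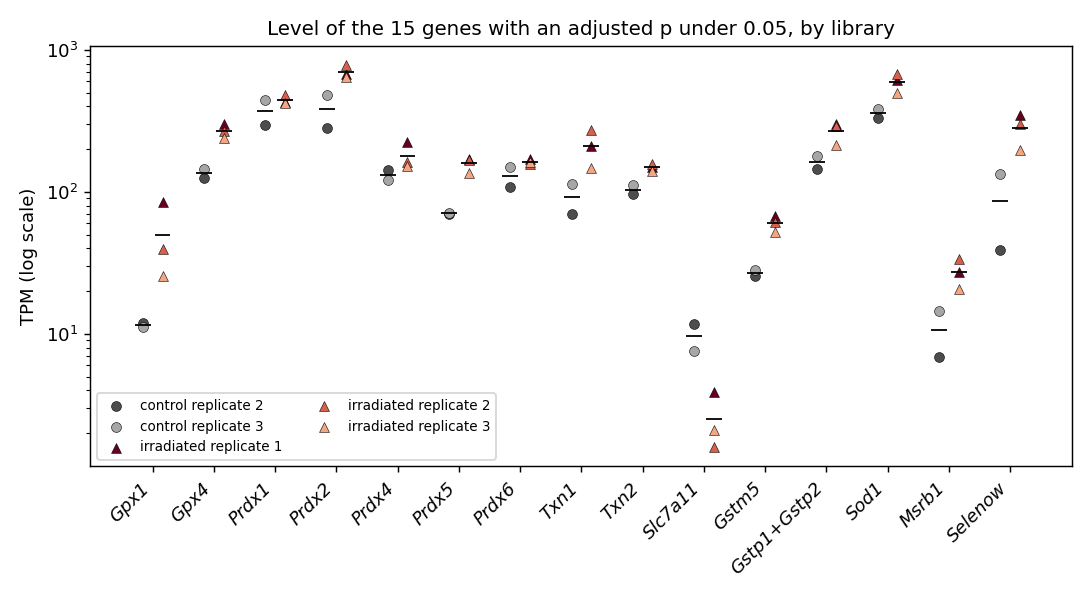
TPM on a log scale (y axis) in each of the 5 libraries for the 15 antioxidant genes with an adjusted p under 0.05. Circles are control and triangles irradiated libraries, and lines mark group means: only *Slc7a11* has its irradiated libraries below both controls, and *Prdx1* is the gene whose groups overlap on this scale.

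Other genes of the same pathways, taken from 5 lists of 34, 28, 30, 23 and 25 symbols, were read in the same comparison. These lists too were chosen with earlier results of these data known. Of all tested genes in that comparison, 12.7% were higher and 13% lower, and 2.7% and 2.04% with the length offset. At an unadjusted p under 0.05 in edgeR, 2951 of all 14090 were above and 2838 below 0, and 2164 and 1707 with the offset. With the offset but without irradiated replicate 1, 0 of 13966 genes were higher and 0 lower. Every call of these lists with the offset was therefore lost there. Without irradiated replicate 2, the offset left 1 gene higher and 2 lower of 13927 in all. Of 27 tested NRF2 targets and partners, 10 were higher and 0 lower, while 12 were above and 2 below 0 at an unadjusted p under 0.05 in edgeR, and the median log2 fold change was 0.49, against 0.18 with the length offset, where 2 were higher (*Sqstm1* and *Maff*) and 0 lower, 7 being above and 0 below 0 at an unadjusted p under 0.05. *Sqstm1*, the autophagy receptor p62, which can take KEAP1 away from NRF2, had 115 and 155 CPM in control and 292, 318 and 314 CPM in irradiated cells, with a log2 fold change of 1.19 ± 0.18 (SE; edgeR, adjusted p = 0.00882) and of 0.91 (edgeR, adjusted p = 0.0304) with the length offset. *Maff*, a small MAF partner of NRF2, had 7.04 and 11.1 CPM in control and 32.5, 33.0 and 22.8 CPM in irradiated cells, with 1.70 ± 0.27 (SE; edgeR, adjusted p = 0.00898) and 1.38 (edgeR, adjusted p = 0.0304). In both genes every irradiated library was above both controls. *Fth1*, the ferritin heavy chain that stores iron, had 87.3 and 114 CPM in control and 214, 224 and 198 CPM in irradiated cells, with 1.08 ± 0.17 (SE; edgeR, adjusted p = 0.00898) and 0.41 (edgeR, adjusted p = 0.0903) with the offset.

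Of 23 tested genes of other glutathione transferases and glutathione turnover, 3 were higher and 0 lower, 10 being above and 0 below 0 at an unadjusted p under 0.05 in edgeR, with a median of 0.44. Over all 14090 genes, 2951 were above and 2838 below 0 at that unadjusted p in edgeR. At the adjusted p, the share of higher genes is near the 12.7% of all genes. The 3 were *Glrx5*, a mitochondrial glutaredoxin of iron-sulfur assembly (0.95), *Hagh*, a hydrolase of the glyoxalase pathway (1.41), and *Lancl1* (0.64). The length offset gave 0.90, 0.83 and 0.084, with 1 gene of the list, *Glrx5*, higher and 0 lower in edgeR (3 above and 1 below 0 at an unadjusted p under 0.05) and a median of 0.084. Of 25 tested thioredoxin-fold and repair genes, 8 were higher and 1 lower, with a median of 0.42, and with the length offset 1 was higher (*Txnip*) and 0 lower in edgeR (8 above and 0 below 0 at an unadjusted p under 0.05), with a median of 0.22. *Txnip*, the inhibitor of thioredoxin, had 61.7 and 72.1 CPM in control and 206, 127 and 116 CPM in irradiated cells, with 1.16 ± 0.26 (SE; edgeR, adjusted p = 0.0168) and 1.11 (edgeR, adjusted p = 0.0477) with the length offset. All irradiated libraries lay above both controls, replicate 1 the highest. *Park7*, a redox-sensitive chaperone, and *Txnl4a*, a spliceosome protein with a thioredoxin fold, had log2 fold changes of 1.03 and 0.75, and 0.35 and 0.34 with the offset. The gene that fell was *Sesn3*, a sestrin, at −0.97 ± 0.25 (SE; edgeR, adjusted p = 0.0264), against −0.10 with the offset.

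Among 19 tested selenoproteins and factors of selenocysteine insertion, 6 were higher and 1 lower, with a median of 0.22, and with the length offset 1 was higher (*Selenok*) and 1 lower (*Sephs1*), with a median of 0.17. *Selenok*, *Selenof* and *Selenom*, all of the endoplasmic reticulum, had log2 fold changes of 1.19, 1.22 and 1.92, and 0.75 (edgeR, adjusted p = 0.0393), 0.73 (edgeR, adjusted p = 0.0539) and 1.30 (edgeR, adjusted p = 0.0561) with the length offset. *Sephs1*, a relative of selenophosphate synthetase, fell, from 217 and 212 CPM in control to 152, 144 and 157 CPM in irradiated cells, with −0.50 ± 0.14 (SE; edgeR, adjusted p = 0.0307) and −0.54 (edgeR, adjusted p = 0.0484) with the offset.

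Genes of NADPH supply and ferroptosis went both ways, with 6 of 23 tested higher, 3 lower and a median of −0.0033; the share of lower genes is near the 13% of all genes. With the length offset 1 was higher (*Aifm2*) and 1 lower (*Aldh1l2*), with a median of 0.10. *Aldh1l2*, a mitochondrial folate enzyme that yields NADPH, had 213 and 182 CPM in control and 91.4, 90.7 and 96.8 CPM in irradiated cells, with a log2 fold change of −1.09 ± 0.14 (SE; edgeR, adjusted p = 0.00811) and of −0.56 (edgeR, adjusted p = 0.0418) with the length offset. *Acsl4*, which loads polyunsaturated fatty acids into lipids and promotes ferroptosis, had 173 and 171 CPM in control and 83.4, 98.6 and 116 CPM in irradiated cells, with −0.79 ± 0.17 (SE; edgeR, adjusted p = 0.0145) and −0.39 (edgeR, adjusted p = 0.127). *Aifm2*, also called FSP1, which recycles coenzyme Q against lipid peroxidation, had 3.26 and 3.98 CPM in control and 8.68, 7.72 and 8.89 CPM in irradiated cells, with 1.22 ± 0.27 (SE; edgeR, adjusted p = 0.0174) and 1.22 (edgeR, adjusted p = 0.0416). The groups of these 3 genes did not overlap. *Cisd1*, an iron-sulfur protein of the outer mitochondrial membrane, and *Hspb1*, a small heat shock protein, had log2 fold changes of 1.26 and 1.90, and *Me3*, the mitochondrial NADP-dependent malic enzyme, had −1.53. The length offset gave 0.63 (edgeR, adjusted p = 0.0587), 1.22 (edgeR, adjusted p = 0.137) and −1.26 (edgeR, adjusted p = 0.123), so that none of these 3 was called with it.

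**Figure D3:**
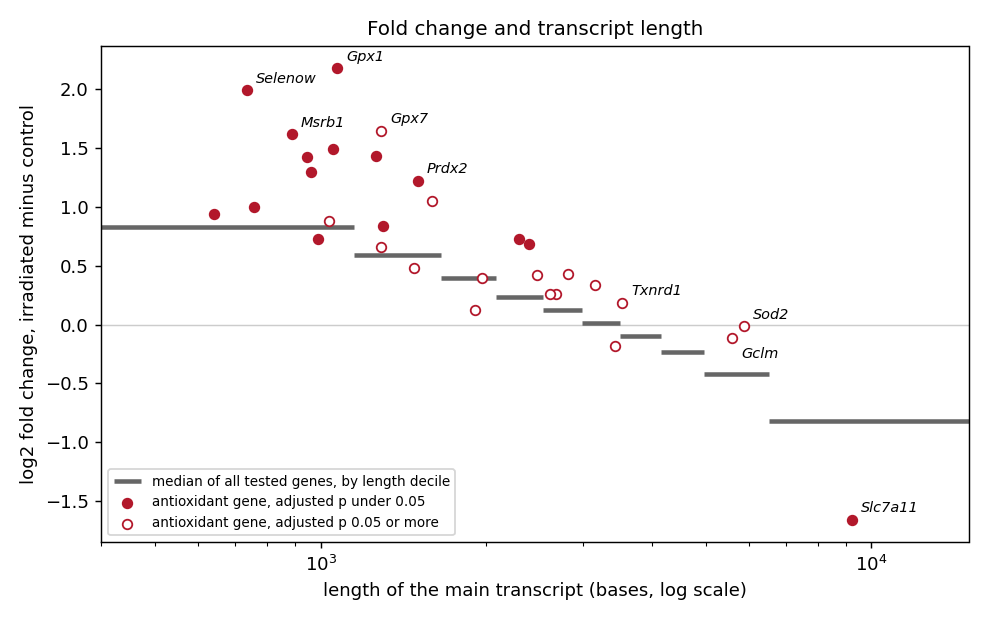
Log2 fold change (y axis) against the length of the main transcript in bases (log x axis) for the 31 antioxidant genes tested, filled at an adjusted p under 0.05. Grey bars are the median of all tested genes in each length decile, falling from 0.83 to −0.82. Of the 31 genes, 26 lie above the bar of their decile, where all genes divide evenly by definition.

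Because so many of these genes are known NRF2 targets, their RefSeq promoters (GRCm38.p6, windows of 300 bases, mostly upstream of the start) were searched for short motifs on both strands. A promoter was matched for 34 of the 38 symbols. A symbol was counted if any of its promoters held the motif, while shares over all genes are per promoter. The counts and the shares are thus in unlike units. *Gstp1* and *Gstp2*, summed elsewhere, were counted apart here. The core of the antioxidant response element, TGACNNNGC, occurred in 7 of the 34 (*Prdx1*, *Txnrd1*, *Gclm*, *Gstm5*, *Sod1*, *Srxn1* and *Nfe2l2*), and in 12.4% of 32851 promoters of all genes. The AP-1 site TGANTCA, which can overlap the former, occurred in 5 (*Prdx1*, *Gstm5*, *Gstp1*, *Gstp2* and *Srxn1*), and in 7.81% of all promoters. The core of the hypoxia response element, ACGTG, occurred in 11, and in 19.6% of all promoters. A match is a description and not a site of binding. Of the 7 genes with the first motif, *Prdx1*, *Gstm5* and *Sod1* rose and *Txnrd1*, *Gclm*, *Srxn1* and *Nfe2l2* did not pass the test. The matches upstream of the start are shown because they include both outcomes, each read 5′ to 3′ on the strand of its gene with 10 flanking bases, the motif or its reverse complement in capitals. The *Txnrd1* site lies upstream of an alternative RefSeq start, within the span of the gene given above.
Prdx1 (chr4:116685456-116685484, + strand): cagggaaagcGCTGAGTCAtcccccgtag
Gstm5 (chr3:107895802-107895830, + strand): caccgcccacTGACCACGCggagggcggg
Sod1 (chr16:90220696-90220724, + strand): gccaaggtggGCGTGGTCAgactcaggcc
Txnrd1 (chr10:82859104-82859132, + strand): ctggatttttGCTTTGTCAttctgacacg
Gclm (chr3:122245413-122245441, + strand): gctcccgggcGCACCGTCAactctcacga
Nfe2l2 (chr2:75704885-75704913, - strand): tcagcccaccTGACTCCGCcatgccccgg

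The pi-class pair shows how alike its members are: the AP-1 site (capitals) and its flanks read the same in both promoters, on the minus strand of chromosome 19. The *Gstp2* stretch lies wholly and the *Gstp1* stretch partly within the span of its gene given above. Both sites lie upstream of the RefSeq start of their gene.
Gstp1 (chr19:4037970-4037996, - strand): tccaacgtgtTGAGTCAgcatccgggg
Gstp2 (chr19:4042294-4042320, - strand): tccaacgtgtTGAGTCAgcatccgggg

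Markers of other cell types were low, apart from *Pdgfra* of the fibroblast list. The 7 leukocyte markers summed to 4.55 and 7.03 TPM in control and 1.62, 1.18 and 1.45 TPM in irradiated cells, mostly *Cd68*, and *Adgre1*, *Csf1r*, *Lyz2* and *Cd14* had at most 3 reads in every library. Erythroid cells are rich in *Gpx1*, *Cat* and *Prdx2*: the 5 erythroid markers summed to 0.871 and 0.616 TPM in control and 0.622, 0.877 and 1.20 TPM in irradiated cells, the most abundant being *Alas2*, and the 4 globin genes had at most 1 read in any library. The 5 fibroblast markers summed to 67.4 and 57.0 TPM in control and 36.8, 51.8 and 47.0 TPM in irradiated cells, nearly all *Pdgfra*. *Col1a1* stood at 13.5 TPM in control replicate 2, a value that came from 33 reads (1.16 CPM). It had 2 reads in control replicate 3 and 6, 9 and 10 reads in irradiated replicates 1, 2 and 3. The 3 endothelial markers summed to 1.55 and 1.27 TPM in control and 0.314, 0.489 and 0.524 TPM in irradiated cells, the most abundant being *Pecam1*. The 4 markers of alveolar and club cells summed to 3.05 and 7.71 TPM in control and 10.8, 12.6 and 12.4 TPM in irradiated cells, mostly *Sftpc*, which rose at 1.72 ± 0.45 (SE; edgeR, adjusted p = 0.0273). *Ager*, also tested, pointed the other way at −0.89 (edgeR, adjusted p = 0.593), and at −1.44 with the length offset, with groups that overlapped. *Scgb1a1* had 0 reads. Among neuroendocrine markers *Syp*, *Calca* and *Uchl1* rose, at 0.64, 1.18 and 1.14, and *Ncam1* fell, at −1.20. None of these 4 genes was called with the length offset, at 0.53 (edgeR, adjusted p = 0.0826), 0.53 (edgeR, adjusted p = 0.331), 0.53 (edgeR, adjusted p = 0.102) and −0.67 (edgeR, adjusted p = 0.133), nor was *Sftpc*, at 1.09 (edgeR, adjusted p = 0.133). The part of these shifts in the antioxidant results was not tested.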

How the data were processed

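The deposited files hold, for each transcript, the estimated counts, TPM and effective length that the authors' Salmon run (version 0.8.2, mm10) gave; their own comparison used DESeq2 1.22.2. Here estimated counts were summed to gene symbols of GENCODE M21, through which 99.9% of the reads of each library were matched, and rounded. Strandedness of the libraries is not stated. Genes were filtered with filterByExpr, scaled with TMM and compared with edgeR 4.0.16 in R 4.3.3 (glmQLFit, two-sided quasi-likelihood test, Benjamini-Hochberg over all genes tested). Standard errors are the log2 fold change over the root of F. Genes were called at an adjusted p under 0.05; the added threshold of 1.5 is that of the study's methods. The length offset is a spline with 5 degrees of freedom of log2 CPM on transcript length in each library. DESeq2 1.42.0 was the second tool, blastn 2.17.0 compared transcripts, and Python 3.11.15 with pandas 2.3.3, numpy 2.4.6 and matplotlib 3.10.9 did the rest. Named in full were all members called, with *Nfe2l2*, *Keap1*, *Gclc*, *Gclm*, *Nqo1*, *Srxn1*, *Txnrd1* and *Slc7a11*, and from each other list up to 3 called genes a direction with the smallest p. Members and lists were chosen with earlier results of these data known. The single-cell libraries of the series were not analysed here.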

Additional observations from a re-analysis of the deposited data

How the results depend on the processing

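The counts were 14 antioxidant genes higher, 1 lower and 4 past both thresholds, with a median log2 fold change of 0.72. With DESeq2's size factors, DESeq2, no filter on low counts, protein-coding transcripts only and *Gstp1* and *Gstp2* apart, the number higher was 14 or 15 and the number lower 1. With offsets from Salmon's effective length 7 were past both thresholds. With the transcript length offset 2 were higher, 0 lower and 0 past both in edgeR, with a median of 0.33. At an unadjusted p under 0.05 in edgeR, 12 were above and 1 below 0 there. Over all 14090 genes, 500 were past both thresholds without an offset and 118 with the transcript length offset. For every other setting the count past both is given for the antioxidant genes alone.

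With replicate numbers as a block in edgeR 8 antioxidant genes were higher, beside 585 of 14090 in all; the correlation that checks the pairing of the numbers was −0.335, and the labels do not say that they pair. With the block and the transcript length offset together 0 were higher, 0 lower and 0 past both, with a median of 0.28. In all, 3 genes were higher and 5 lower there at the adjusted p. At an unadjusted p under 0.05 in edgeR, 10 antioxidant genes were above and 1 below 0, a count not given over all genes. A block with irradiated replicates 2 and 3 swapped, added after seeing the data, gave 18 higher and 1 lower, beside 3047 and 2689 in all.

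Leaving out 1 library in turn gave 3 to 18 genes higher, 0 to 1 lower, 0 to 7 past both and medians of 0.53 to 0.96; where 1 control is left, it is assumed to vary like the irradiated libraries. The same with the transcript length offset, chosen after seeing the data, gave 0 higher, 0 lower, 0 past both and a median of 0.42 without control replicate 2, and 7, 0, 2 and 0.59 without control replicate 3. It gave 0, 0, 0 and 0.28 without irradiated replicate 1 and 0, 0, 0 and 0.36 without irradiated replicate 2. Without irradiated replicate 3 it gave 0, 0, 0 and 0.35. In edgeR 11 or more antioxidant genes were above and 1 below 0 there at an unadjusted p under 0.05. That count is not given over all genes.

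The log2 fold changes of 11 genes turned sign in some setting, with an adjusted p of 0.05 or more there in each case. With no filter on low counts there was *Sod2* at 0.034. Under Salmon's effective length there was *Gclm* at 0.17 and *Sod2* at 0.46. With the length offset there was *Prdx3* at −0.047, *Txnrd2* at −0.25, *Gclm* at 0.34 and *Sod2* at 0.49. Under the replicate block there was *Sod2* at 0.0003. With the replicate block and the length offset there was *Prdx3* at −0.10, *Prdx4* at −0.15, *Txnrd2* at −0.15, *Gclm* at 0.28 and *Sod2* at 0.48. Under protein-coding transcripts alone there was *Txnrd2* at −0.013. With the length offset without control replicate 2 there was *Gclm* at 0.24, *Gsr* at −0.21, *Gstm1* at −0.26 and *Sod2* at 0.56. Under the length offset without control replicate 3 there was *Prdx3* at −0.066, *Prdx4* at −0.11, *Txnrd2* at −0.46, *Gclm* at 0.49, *Gstt1* at −0.020, *Sod2* at 0.45 and *Cat* at −0.036. With the length offset without irradiated replicate 1 there was *Gpx3* at −0.022, *Prdx3* at −0.088, *Prdx4* at −0.16, *Txnrd2* at −0.17, *Gclm* at 0.28, *Gstm1* at −0.0083 and *Sod2* at 0.48. Under the length offset without irradiated replicate 2 there was *Txnrd2* at −0.29, *Gclm* at 0.35 and *Sod2* at 0.46. With the length offset without irradiated replicate 3 there was *Prdx3* at −0.050, *Txnrd2* at −0.27, *Gclm* at 0.39 and *Sod2* at 0.52. Leaving out 1 library in turn gave ranges across 0 for *Txnrd1* −0.065 to 0.54, *Txnrd2* −0.0097 to 0.32, *Gsr* −0.18 to 0.96 and *Sod2* −0.11 to 0.14. The cause was not tested.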
